A study of Mus musculus with 18 samples.

Results

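The genes Ly6a, Ly6c1, Ly6c2, Ly6e and Ly6i encode Ly6 family surface proteins, and these 5 genes were taken by name from the 21734 protein-coding genes of the count table, where each has 1 row. Their RNA was measured by RNA-seq in 18 libraries of bone marrow-derived macrophages (BMDMs) of the mouse, which are marrow cells matured into macrophages in M-CSF. The labels give the donors as mice of 6 to 7 months on a 129/B6 mix, 3 per genotype, without tying libraries to mice, while the study's methods give a younger age for the lysates of its proteomics. The cells were grown for 8 to 9 days with M-CSF at 10 ng/ml. Wild-type (WT) mice carry the normal miR-146a, KO mice lack its precursor, and 3F mice keep the miR-146a seed while the 3′ part of the duplex is exchanged between its strands. Cells of each genotype received fresh medium alone (resting) or with LPS at 1 ng/ml, and both were harvested after 16 h, which gives 6 groups of 3 libraries. Both alleles were made in mouse ES cells by homologous recombination and are present in every cell of the animal, and the KO and 3F lines were bred as separate colonies after 3 backcrosses to C57BL6/J. The miR-146a locus itself is not among the protein-coding genes, so the alleles were not checked in these counts.

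Ly6 proteins are small, cysteine-rich proteins that mostly sit on the outer face of the plasma membrane through a glycosylphosphatidylinositol (GPI) anchor. The Ly6C antigen, encoded by Ly6c1 and Ly6c2, is high on inflammatory monocytes and is lost as these cells mature into macrophages. Ly6a encodes Sca-1, a marker of haematopoietic stem cells and of some endothelium, and Ly6e is known as an interferon-stimulated gene. Several genes of the family are known to respond to interferons, which macrophages release after LPS acts on TLR4. miR-146a is induced by the same receptor and is known as a brake on it, acting through the kinase Irak1 and the adaptor Traf6.

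The 2 mature microRNAs with this seed and the best seed matches in the members' 3′ UTRs are shown because the study removed or altered this microRNA. In the microRNAs capitals mark the seed (bases 2 to 8, GAGAACU), which miR-146a and miR-146b share, and RefSeq (GRCm38.p6) places miR-146a at chr11:43374435-43374456 and miR-146b at chr19:46342790-46342811.
mmu-miR-146a-5p: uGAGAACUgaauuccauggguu
mmu-miR-146b-5p: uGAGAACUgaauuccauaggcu

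In the sites, written as DNA from GENCODE M21 transcripts of the same build, capitals mark the 6mer GTTCTC that pairs with bases 2 to 7.
Ly6e: catcccccatgtGTTCTCcatatcccccca
Ly6i: aataaaccctttGTTCTCccggccaa
Ly6a: aataaaccctttGTTCTCcc
Ly6c1: aataaaagctttGTTCTCccagccaaaa
Ly6c2: aataaaagctttGTTCTCcca

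In Ly6e the site begins at base 14 of a 3′ UTR of 1192 bases. In Ly6i, Ly6a, Ly6c1 and Ly6c2 it begins at base 367 of 380, 377 of 384, 374 of 389 and 374 of 382, a few bases past an AATAAA hexamer and close to the transcript's annotated end. Each member had at least 1 annotated transcript with this 6mer, and no transcript of any member held a 7mer or 8mer match. Of 20788 genes of the table with an annotated 3′ UTR, 29.7% held the 6mer and 18.2% a 7mer in their longest 3′ UTR, and among 2265 genes with 300 to 500 bases there the shares were 11.8% and 5.83%. A match is a description of the letters, and pairing was not measured.

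All 5 genes lie within 156920 bases of chromosome 15 (mm10) and no other gene of the table lies between them. Ly6e stands at 74955051 to 74959905 on the plus strand. The others follow on the minus strand, Ly6i at 74979534 to 74983430, Ly6a at 74994877 to 74998031, Ly6c1 at 75044018 to 75048830 and Ly6c2 at 75108158 to 75111970. The coding sequences of Ly6c1 and Ly6c2 were identical at 97.7% of aligned bases (384 of 393), those of Ly6a and Ly6i at 86.3%, and Ly6e stood apart with 50.1% to 53.5% against the other members. The authors dropped reads of low mapping quality, so stretches that members share go uncounted. Of 50-base windows in the annotated transcripts, 31.2% in Ly6c2, 32.8% in Ly6c1, 19.0% in Ly6a and 4.76% in Ly6i also occurred in transcripts of another gene, and none did in Ly6e. The read length is not given in the sources used here, and with 75-base windows the shares were 20.7%, 19.0%, 6.33% and 0.52%. Counts of Ly6c1, Ly6c2, Ly6a and Ly6i can miss such reads.

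Total counts ran from 4071084 (3F resting replicate 3) to 19818043, a 4.87-fold range. KO resting replicate 3 stood apart from the other KO resting libraries: it differed most from replicate 1 of its group among all replicate pairs, at 111 chi-square units per degree of freedom against 7.06 for replicates 1 and 2. 3F resting replicate 3 also stood apart, at 64.6 and 59.0 units against replicates 1 and 2 of its group, which differed by 7.31. Macrophage markers were strong in all libraries (Csf1r from 992 to 3936 CPM, counts per 1000000 counts of scaled library size), while each of 5 B cell markers stayed at or below 8 counts and the neutrophil marker Ly6g, a gene of the same family, had 0 to 2 counts. The summed level of 10 neutrophil markers was 53.6 CPM in KO resting replicate 3 and 15.8 and 28.8 CPM in replicates 1 and 2. For 4 endothelial markers these values were 33.5, 11.7 and 6.65 CPM, and for 6 T cell markers 0.898, 9.02 and 10.9 CPM. Over the 15 libraries of the other 5 groups the neutrophil sum ran from 13.9 to 68.4 CPM, the endothelial sum from 5.27 to 25.4 CPM and the T cell sum from 3.07 to 11.4 CPM. Few genes made up each sum. Over the 18 libraries S100a8 and S100a9 held 5351 and 1539 counts, against at most 425 (Camp) for any other neutrophil marker. Kdr held 3193 endothelial counts, against 225 for Cdh5, 18 for Tie1 and 5 for Emcn. Of the T cell markers Cd4 held 1540 counts and Lck 83, and Cd3d, Cd3e, Cd3g and Cd8a held 4, 0, 2 and 3. In bulk RNA, fewer cells of a type and less RNA per cell cannot be told apart, and the part of other cell types in the members' values was not tested. The members' tests that use KO resting replicate 3 or 3F resting replicate 3 are given below with and without it.

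Per kb of exon, Ly6e was the most abundant member in each of the 6 groups. In WT cells with LPS its mean level was 90.8 CPM per kb, against 26.2 for Ly6c2, 18.1 for Ly6i, 2.34 for Ly6a and 0.0146 for Ly6c1. Ly6e made up 86.4% of the members' summed mean CPM per kb in WT resting cells, 66.1% in WT cells with LPS and 44.9% in KO cells with LPS. Ly6c2 made up 9.46%, 19.1% and 33.0% of the same sums.

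**Figure D1:**
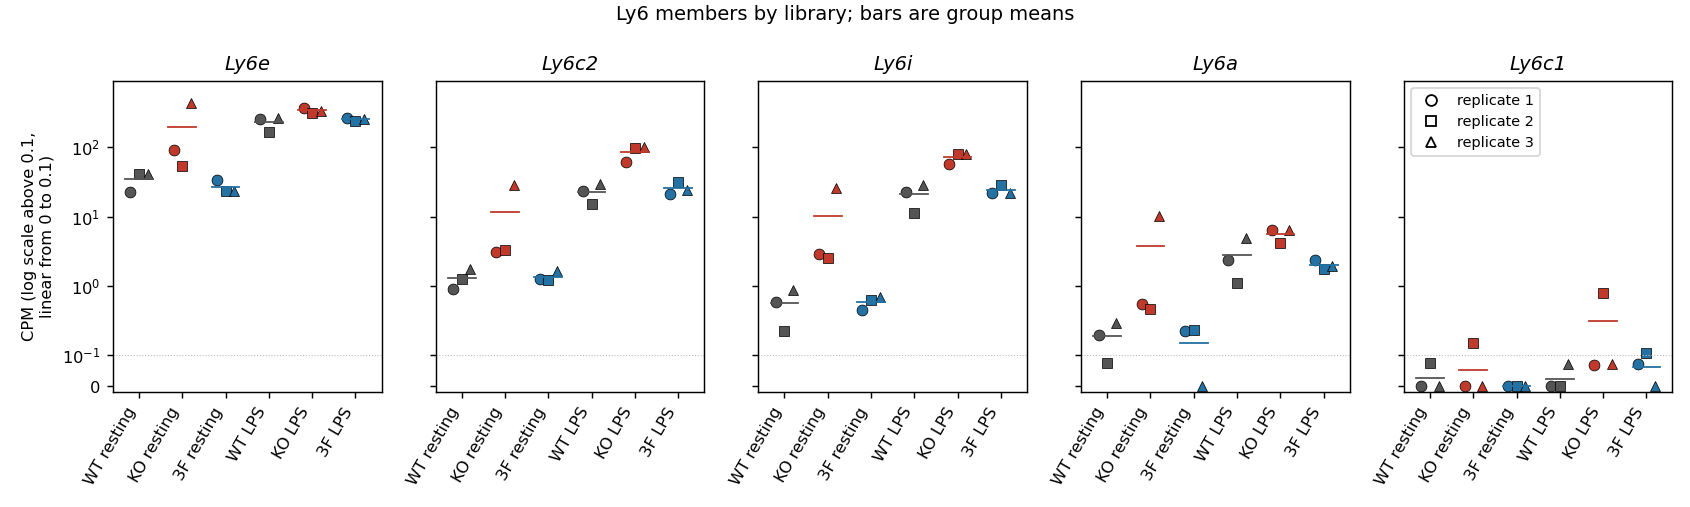
CPM of each member (vertical axis, logarithmic above 0.1 and linear from 0 to 0.1) in the 3 libraries of each of the 6 groups, with marker shape giving the replicate and a bar the group mean. KO resting replicate 3 (triangle) lies among or near the libraries with LPS for Ly6e, Ly6c2, Ly6i and Ly6a, and Ly6c1 stays below 1 CPM in all 18 libraries.

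In WT cells Ly6e, Ly6c2, Ly6i and Ly6a were all higher after LPS. Ly6e had 22.9, 40.6 and 40.6 CPM in WT resting replicates 1 to 3 and 251, 166 and 266 CPM in the WT replicates with LPS. All libraries with LPS lay above all resting ones, and the log2 fold change was 2.72 ± 0.54 (SE), which is 6.58-fold (edgeR adjusted p = 0.00142, n = 3 and 3). Ly6c2 had 0.920, 1.28 and 1.74 CPM at rest and 23.2, 15.1 and 29.98 CPM with LPS, a log2 fold change of 4.14 ± 0.72 or 17.7-fold (edgeR adjusted p = 0.000493). These levels rest on 14 to 18 counts per library at rest and 221 to 409 with LPS.

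Ly6i, a member whose function is little known, gave the highest log2 fold change of the 4 members tested in WT. It had 0.591, 0.226 and 0.870 CPM at rest and 23.0, 11.2 and 28.6 CPM with LPS, a log2 fold change of 5.24 ± 0.84 or 37.8-fold (edgeR adjusted p = 0.000251). Ly6a had only 3, 1 and 3 counts in the resting libraries and 34, 16 and 68 with LPS. Its log2 fold change was 3.89 ± 1.15 (edgeR adjusted p = 0.0188), and the ratio of the pooled counts per depth was 15.4 with a 95% counting interval of 7.23 to 39.0. Thus 4 of the 4 members that could be tested were called higher, where 16.3% of 11357 genes tested were called higher in this comparison, and the members' median log2 fold change was 4.01 beside 0.02 for all genes. For all 4 the lowest library with LPS exceeded the highest resting one, which held for 25.9% of all genes. Ly6a was the least secure of the 4: its adjusted p rose to 0.0854 at most when single libraries were left out and missed the 0.05 threshold without WT LPS replicate 3, WT resting replicate 1 or WT resting replicate 2.

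In 3F cells the same 4 genes were called higher after LPS, against 17.2% of all genes tested. Ly6e had 34.2, 23.4 and 23.2 CPM at rest and 265, 242 and 253 CPM with LPS, a log2 fold change of 3.22 ± 0.55 (edgeR adjusted p = 0.000434). Ly6c2 had 1.24, 1.22 and 1.64 CPM at rest and 20.96, 31.3 and 24.2 CPM with LPS, and its log2 fold change was 4.30 ± 0.74 (edgeR adjusted p = 0.000434). Resting and LPS libraries of 3F cells did not overlap for any of the 4 genes, as was so with LPS higher for 25.1% of all genes.

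Ly6i in 3F cells went from 0.452, 0.637 and 0.702 CPM to 21.7, 28.3 and 21.9 CPM, a log2 fold change of 5.39 ± 0.86 (edgeR adjusted p = 0.000221). Ly6a had 4, 4 and 0 counts at rest and 32, 32 and 15 with LPS, with a log2 fold change of 3.27 ± 1.19 (edgeR adjusted p = 0.0469). The pooled ratio for Ly6a was 9.76 with a counting interval of 4.72 to 23.4. After 3F resting replicate 3 was left out, Ly6e stood at 3.10 ± 0.66, Ly6c2 at 4.33 ± 0.84 and Ly6i at 5.41 ± 0.98 (edgeR adjusted p = 0.00282, 0.00160 and 0.000897), and Ly6a at 3.04 ± 1.29 was not called (0.0937). The call of Ly6a was lost in 13 of the 18 fits that left out 1 library, with adjusted p between 0.000759 and 0.104 over them, while Ly6e, Ly6c2 and Ly6i kept their calls under all 24 alternatives.

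In KO cells 2 of the 4 genes, Ly6c2 and Ly6i, were called higher after LPS, against 14.3% of all genes tested. Ly6c2 had 3.09, 3.29 and 28.5 CPM in KO resting replicates 1 to 3 and 61.0, 98.0 and 99.9 CPM with LPS, a log2 fold change of 2.97 ± 0.59 (edgeR adjusted p = 0.00139). Ly6i had 2.91, 2.52 and 25.6 CPM at rest and 56.4, 78.9 and 78.7 CPM with LPS, with a log2 fold change of 2.87 ± 0.61 (edgeR adjusted p = 0.00228). For both genes the third resting library was the highest at rest but stayed below the libraries with LPS.

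Ly6e and Ly6a did not pass in KO cells. Ly6e had 91.8, 53.7 and 436 CPM at rest and 374, 310 and 336 CPM with LPS, so that KO resting replicate 3 was above all KO libraries with LPS, and the log2 fold change was 0.82 ± 0.51 (edgeR adjusted p = 0.255). Ly6a had 9, 6 and 91 counts at rest and 94, 57 and 91 with LPS, with a log2 fold change of 0.71 ± 0.77 (edgeR adjusted p = 0.535). With the replicate number as a block Ly6e passed, at 1.43 (edgeR adjusted p = 0.0489). Without KO resting replicate 3 all 4 genes were called higher, Ly6e at 2.22 ± 0.28 (edgeR adjusted p = 1.66e-05) and Ly6a at 3.46 ± 0.56 (edgeR adjusted p = 0.000157). Ly6c2 then stood at 4.76 ± 0.33 and Ly6i at 4.71 ± 0.37, and the pooled ratio of Ly6a was 11.1 with a counting interval of 6.62 to 20.2, against 2.06 (1.63 to 2.61) with all 3 resting libraries. Leaving out this library also raised the number of all genes called in KO, in either direction, from 3059 (26.9% of those tested) to 4037. In that fit 20.4% of all genes were called higher.

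**Figure D2:**
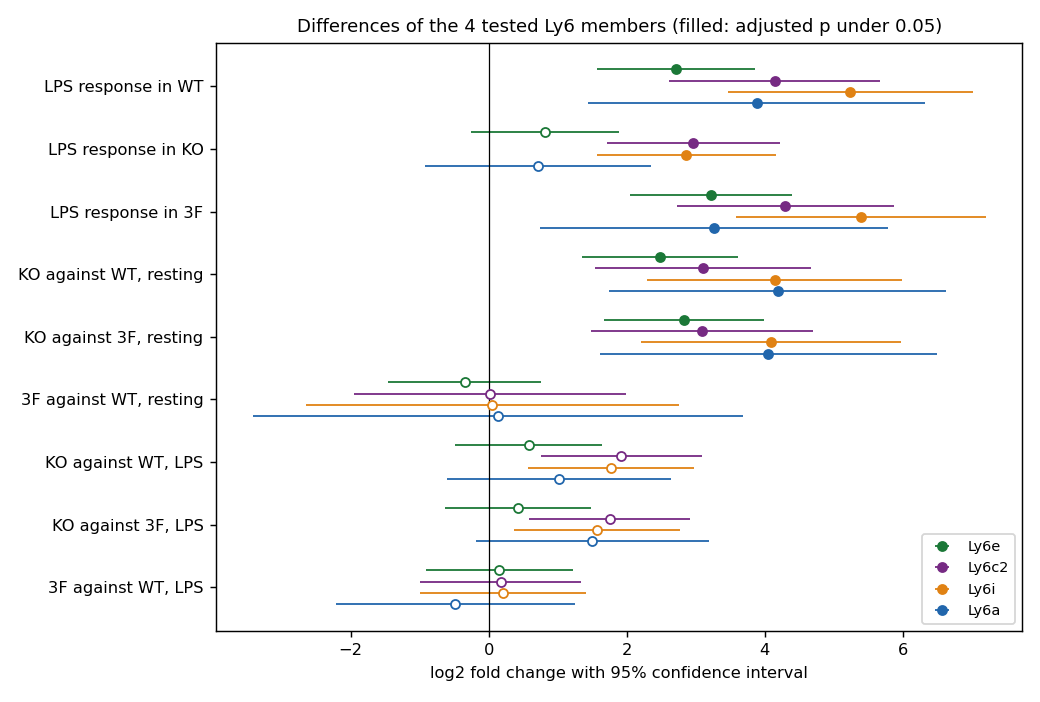
Log2 fold changes (horizontal axis) of the 4 members tested in 9 comparisons, with 95% confidence intervals and filled points where the adjusted p was under 0.05. After LPS all 4 were called higher in WT and 3F and 2 in KO, and at rest all 4 were called higher in KO than in either other genotype. Without KO resting replicate 3 (not plotted), 4 were called after LPS in KO, and 2 at rest in KO against either genotype. The intervals of 3F against WT all cross 0.

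At rest, all 4 genes were higher in KO than in WT, which asks what loss of miR-146a does to unstimulated cells. The log2 differences were 2.48 ± 0.54 for Ly6e (edgeR adjusted p = 0.00920), 3.10 ± 0.74 for Ly6c2 (0.0155), 4.15 ± 0.87 for Ly6i (0.00824) and 4.19 ± 1.15 for Ly6a (0.0317). Among all genes tested 5.12% were called higher, and the members' median was 3.62 beside 0.02 for all genes. For Ly6a, which had 7 counts over the 3 WT resting libraries, the pooled ratio was 15.4 with a counting interval of 7.23 to 39.3, and 91 of the 106 KO counts came from KO resting replicate 3. Without that library the ratio was 2.85 (1.09 to 8.25), and the members' median was 1.38.

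These sizes rest largely on KO resting replicate 3, which was 5.99 times the mean of KO resting replicates 1 and 2 for Ly6e, 8.94 times for Ly6c2, 9.43 times for Ly6i and 20.1 times for Ly6a. Replicates 1 and 2 still lay above all WT resting libraries for each of the 4 genes, as in Ly6c2 with 3.09 and 3.29 CPM against at most 1.74 CPM in WT. All 3 KO resting libraries lay above all WT resting ones for these 4 genes and for 13.7% of all genes tested. That share uses replicate 3 as well, so it asks more than replicates 1 and 2 alone do. Without KO resting replicate 3 the log2 difference was 1.07 ± 0.26 for Ly6e (edgeR adjusted p = 0.0217) and 2.31 ± 0.52 for Ly6i (0.0145), which remained called. It was 1.32 ± 0.40 for Ly6c2 (0.0570) and 1.45 ± 0.83 for Ly6a (0.342), which were not. In that fit 3.69% of all genes were called higher. The number of members called was also 1 without WT resting replicate 2 and 2 without WT resting replicate 1. A fit of WT and KO resting libraries alone called 0 of the 4 (adjusted p from 0.0980 to 0.177), and limma-voom with quality weights, which gave KO resting replicate 3 a weight of 0.168 and WT resting replicate 1 one of 0.302, called Ly6e only. Of all genes, these fits called 380 and 2259 in either direction. The lowest weight of the 18 libraries, 0.149, fell to 3F resting replicate 3.

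The summed level of 5 monocyte markers was 39.1 to 48.6 CPM in the KO resting libraries and 22.9 to 25.6 CPM in the WT resting ones, without overlap, and 22.7 to 42.1 CPM in 3F. Of the 5 genes 1 was called higher in resting KO than WT, Cd177, at 2.39 ± 0.56 (edgeR adjusted p = 0.0135), and at 1.84 ± 0.54 without KO resting replicate 3 (0.0496). The chemokine receptor Ccr2 differed by 0.77 ± 0.28 (edgeR adjusted p = 0.101). Among 8 macrophage markers Csf1r was higher by 0.81 ± 0.18 (edgeR adjusted p = 0.0122), Fcgr1 was higher by 1.79 ± 0.49 (0.0321) and Itgam, in 1 of its 2 rows of the table, was lower at -0.71 ± 0.15 (0.00820). When KO resting replicate 3 was left out, Csf1r and Itgam remained called, at 0.87 and -0.61 (edgeR adjusted p = 0.0156 and 0.0268), and Fcgr1 at 0.54 did not (0.285). The part of these shifts in the members' values was not tested.

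With LPS none of the 4 genes was called between KO and WT in the edgeR fit over 18 libraries, in which 1.89% of all genes were called higher. Ly6c2 had 61.0, 98.0 and 99.9 CPM in KO against 23.2, 15.1 and 29.98 CPM in WT, a log2 difference of 1.92 ± 0.55 or 3.80-fold (edgeR adjusted p = 0.0578). Ly6i had 56.4, 78.9 and 78.7 CPM against 23.0, 11.2 and 28.6 CPM, a log2 difference of 1.77 ± 0.57 or 3.41-fold (edgeR adjusted p = 0.0853). Ly6e, at 374, 310 and 336 CPM against 251, 166 and 266 CPM, differed by 0.58 ± 0.50 (edgeR adjusted p = 0.625).

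KO libraries with LPS lay above all WT libraries with LPS for Ly6e, Ly6c2 and Ly6i, as they did for 16.9% of all genes tested, and overlapped them for Ly6a (1.02 ± 0.76, edgeR adjusted p = 0.551). At an unadjusted edgeR p under 0.05, 2 of the 4 passed, Ly6c2 and Ly6i, beside 2041 of the 11357 genes tested in either direction. The calls depended on the spread that all groups share: without KO resting replicate 3, which is in neither group, the standard errors fell and both genes were called with nearly the same log2 differences (1.92 ± 0.23, edgeR adjusted p = 0.000172, and 1.77 ± 0.26, edgeR adjusted p = 0.000726). That fit called 3.66% of all genes higher in KO. Ly6c2 was called in 9 of 24 alternatives and Ly6i in 6 of 24, over which their log2 differences ran from 1.70 to 2.17 and from 1.47 to 2.06. Leaving out 3F resting replicate 3, also in neither group, gave Ly6c2 1.91 ± 0.55 (edgeR adjusted p = 0.0441), in a fit that called 972 of all genes in either direction. DESeq2 called Ly6c2 (adjusted p = 0.0457), and limma-voom with quality weights called Ly6c2, Ly6i and Ly6a. Of all genes, these fits called 983 and 1777 in either direction.

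**Figure D3:**
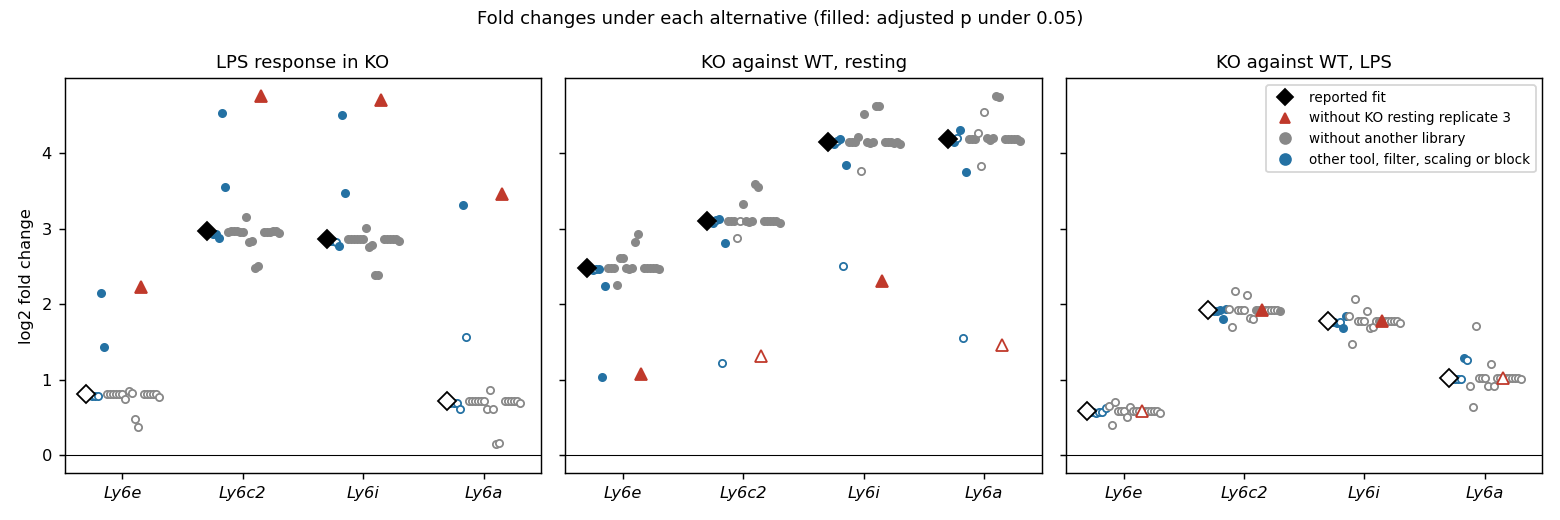
Log2 fold changes of the 4 members (vertical axis) in 3 comparisons under the reported fit (diamonds), without KO resting replicate 3 (triangles), without each other library (grey) and under other tools, filters, scalings or a block (blue), filled where the adjusted p was under 0.05. Leaving out KO resting replicate 3 raised the LPS response of KO, for Ly6e from 0.82 to 2.22, lowered the resting difference, for Ly6e from 2.48 to 1.07, and left the difference with LPS in place, for Ly6c2 at 1.92.

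Between 3F and WT, whose alleles differ in the 3′ part of the microRNA, no member was called in either state by edgeR, DESeq2 or limma-voom, and 0 of the 4 passed an unadjusted p of 0.05 in edgeR. At rest the log2 differences were -0.35 for Ly6e (95% confidence interval -1.46 to 0.76), 0.01 for Ly6c2 (-1.96 to 1.98), 0.05 for Ly6i (-2.65 to 2.76) and 0.14 for Ly6a (-3.42 to 3.69). With LPS they were 0.15 for Ly6e (-0.91 to 1.22), 0.17 for Ly6c2 (-0.99 to 1.33), 0.20 for Ly6i (-0.996 to 1.40) and -0.48 for Ly6a (-2.22 to 1.25). Libraries of the 2 genotypes overlapped for all 4 genes in both states. Each interval was wider at rest than with LPS. Without 3F resting replicate 3 the resting differences ran from -0.26 to 0.33, and 0 of the 4 were called. Among all genes tested 0% were called higher at rest and 0.00881% with LPS, and 3.28% and 3.98% had all 3F libraries above all WT libraries. An unadjusted edgeR p under 0.05 was reached by 557 of the 11357 genes at rest and 106 with LPS, in either direction.

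KO against 3F compares the loss of the microRNA with the allele that keeps the seed. At rest all 4 genes were higher in KO, with log2 differences of 2.83 ± 0.55 for Ly6e (edgeR adjusted p = 0.00631), 3.09 ± 0.76 for Ly6c2 (0.0172), 4.09 ± 0.89 for Ly6i (0.00997) and 4.06 ± 1.15 for Ly6a (0.0316), against 6.79% of all genes tested. This comparison uses the same KO libraries as that with WT. Without KO resting replicate 3, Ly6e stood at 1.42 ± 0.27 (edgeR adjusted p = 0.00671) and Ly6i at 2.26 ± 0.52 (0.0183), while Ly6c2 at 1.30 ± 0.40 (0.0569) and Ly6a at 1.31 ± 0.81 (0.292) were no longer called. In that fit 4.50% of all genes were called higher. After 3F resting replicate 3 was left out instead, Ly6e, Ly6c2 and Ly6i remained called at 2.73 ± 0.64, 3.13 ± 0.86 and 4.12 ± 1.01 (edgeR adjusted p = 0.0250, 0.0424 and 0.0286), and Ly6a at 3.84 ± 1.25 was not (0.0770).

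With LPS none was called between KO and 3F, against 1.51% of all genes, although KO libraries lay above all 3F libraries for all 4 genes, as they did for 19.4% of all genes tested. The log2 differences were 1.75 ± 0.55 for Ly6c2 (edgeR adjusted p = 0.0919), 1.57 ± 0.57 for Ly6i (0.147), 1.503 ± 0.80 for Ly6a (0.374) and 0.42 ± 0.50 for Ly6e (0.754). Without KO resting replicate 3, which is in neither group, Ly6c2, Ly6i and Ly6a were called (edgeR adjusted p = 0.000398, 0.00228 and 0.0371), beside 3.00% of all genes called higher. A fit of the 2 groups alone called all 4 members, and 1665 of all genes in either direction. DESeq2 called 0 of the 4 members and limma-voom with quality weights 3. At an unadjusted edgeR p under 0.05 there were 2, beside 1921 of the 11357 genes tested in either direction.

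Whether LPS acted differently by genotype was tested as the difference of the LPS responses. None of the 4 members was called in edgeR, DESeq2 or limma-voom for KO or for 3F against WT, where 0.00881% and 0% of all genes were called in edgeR. The KO response minus that of WT was -1.90 ± 0.72 on the log2 scale for Ly6e (edgeR adjusted p = 0.797). For KO, 3 of 4 members were under an unadjusted edgeR p of 0.05, beside 560 of the 11357 genes tested in either direction. The differences of the other members were -1.18 ± 0.93 for Ly6c2, -2.37 ± 1.08 for Ly6i and -3.17 ± 1.44 for Ly6a. Without KO resting replicate 3 these came to -0.50 for Ly6e, 0.61 for Ly6c2, -0.54 for Ly6i and -0.43 for Ly6a. For 3F against WT the differences ran from -0.62 to 0.50, and from -0.81 to 0.41 without 3F resting replicate 3.

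Ly6c1 was at the edge of detection. It had 0 counts in 10 of the 18 libraries and fell below the low-count filter, so it was described by its counts alone. KO replicates with LPS held 1, 11 and 1 counts, WT replicates with LPS 0, 0 and 1, and 3F replicates with LPS 1, 2 and 0. At rest WT held 0, 1 and 0 counts, KO 0, 2 and 0, and 3F 0 in each, where a count of 0 allows up to 3. Of its 13 counts in KO cells with LPS, 11 came from replicate 2, so no level was compared between groups.

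The promoters of Ly6c1 and Ly6c2 were the only ones of the 5 members present in the RefSeq table used, which gives 2 start sites for each and 250 bases before and 50 after each of them. The core of an interferon response element (GAAA, 2 bases of any kind, GAAA), which 3.44% of 32851 promoters held on either strand, occurred in none of them. The GAS motif (TTCNNNGAA, with N any base), which 8.30% of promoters held, was also absent from all of them. A stretch around GAGGAAGT, the letters that the macrophage factor PU.1 prefers and which 3.20% of promoters held, is shown to set the near-silent gene beside the expressed one. This motif was chosen after the sequences had been seen, and the stretches lie on the minus strand at chr15:75048772-75048801 in Ly6c1 and, in Ly6c2, at chr15:75111927-75111956 and chr15:75112061-75112090. The promoters of Ly6c2 held the motif at 2 places and those of Ly6c1 at 1, and the first of the Ly6c2 stretches below is the near-identical one. Both start sites of Ly6c2 had both places in their promoters, while only 1 of the 2 start sites of Ly6c1 had its place. Relative to the start site, the near-identical motif stood at -127 in Ly6c1 and at -8 or 26 in Ly6c2.
Ly6c1: accttgtctgaGAGGAAGTaaggactggtg
Ly6c2: acctggtcagaGAGGAAGTaaggactggtg
Ly6c2 (second place): atgttggccctGAGGAAGTaagaaccaaaa

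The tested members changed by different amounts over the libraries. The standard deviation of log2 CPM ran from 1.59 for Ly6e to 2.71 for Ly6i. The measure below counts such differences in size, so it does not say whether the members share a pattern. After centring each gene's log2 CPM on its own mean, the root-mean-square difference over 18 libraries was 0.51 between Ly6c2 and Ly6i, 0.59 between Ly6a and Ly6e, and 0.88 to 1.24 for the other pairs. The libraries share their groups, so these values describe likeness across the 6 groups as well as between replicates. Of 10257 other genes the closest to Ly6e were Rnf213, Trim30a and Lgals9, at 0.24, 0.24 and 0.25. The closest to Ly6i were Gbp5 and Gbp3, both guanylate-binding proteins, and the formyl peptide receptor Fpr1, at 0.43, 0.43 and 0.44. Ly6c2 was closest to the activation antigen Cd69 (0.49), Serpinb2 (0.52), a serine protease inhibitor, and Phf11d (0.54). Ly6a was closest to the immunity-related GTPases Igtp (0.49) and Irgm1 (0.50) and to the complement component C3 (0.50). Over the 17 libraries without KO resting replicate 3 Rnf213, Trim30a and Lgals9 were again the closest to Ly6e, and Gbp5, Gbp3 and Fpr1 to Ly6i. Gja1, C3 and Irgm2 then came closest to Ly6a (0.40 to 0.42) and Serpinb2, Ifi47 and Siglece to Ly6c2 (0.43 to 0.49). Between members the difference was then 0.51 for Ly6c2 and Ly6i, 0.55 for Ly6a and Ly6e, and 0.83 to 1.27 for the other pairs.

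A list of 28 interferon-response genes, which holds none of the members, was set beside them. In WT 28 of the 28 were called higher after LPS, in 3F 27 and in KO 4, and in resting KO against WT 27 were called higher, with median log2 fold changes of 5.18, 4.72, 1.36 and 4.61. After KO resting replicate 3 was left out, 27 were called higher after LPS in KO (median 3.99) and 16 in resting KO against WT (median 1.81). Their summed level was 1436, 1089 and 18351 CPM in KO resting replicates 1 to 3, 411 to 666 CPM in the WT resting libraries and 442 to 615 CPM in the 3F resting libraries. With LPS it ran from 5489 to 24478 CPM in WT, from 17078 to 22678 CPM in KO and from 9280 to 13074 CPM in 3F. The summed level of the 5 members in KO resting replicate 3 was 500.3 CPM, against 98.3 and 60.1 CPM in replicates 1 and 2 and 492 to 521 CPM in KO cells with LPS. Ly6e made up 436 CPM of the sum in that library. Ly6e and Ly6a there lay above all KO libraries with LPS, and Ly6c2 and Ly6i, at 28.5 and 25.6 CPM, lay below them all. KO resting replicate 3 was the highest resting library for both sums, and the part of the interferon response in the members' values was not tested. With LPS, 0 of the 28 were called in KO against WT, 1 without KO resting replicate 3, and their median was 0.59.

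**Figure D4:**
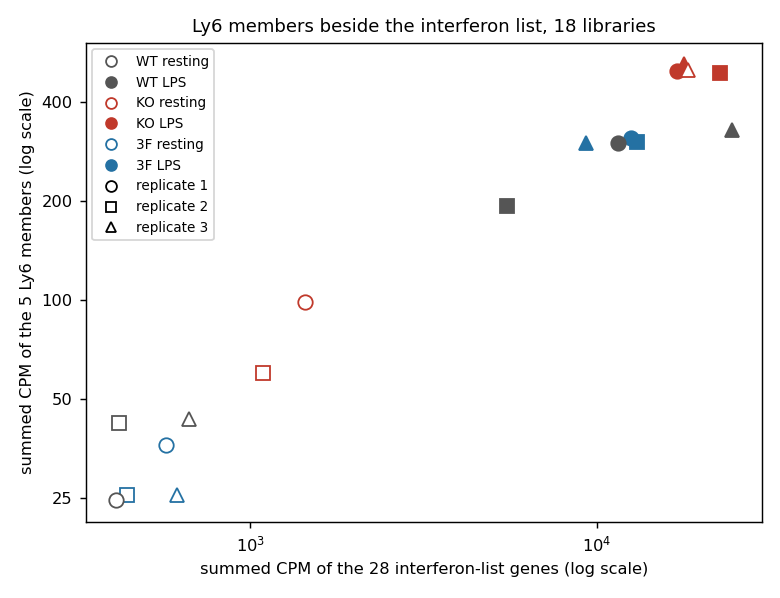
Summed CPM of the 5 members (vertical axis, logarithmic) against summed CPM of the 28 interferon-list genes (horizontal axis, logarithmic) in each of the 18 libraries, open for resting and filled for LPS. KO resting replicate 3 (open red triangle) lies with the KO libraries with LPS, at 500.3 CPM for the members, of which Ly6e made up 436 CPM. KO resting replicates 1 and 2 lie between the other resting libraries and those with LPS.

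Other genes of the wider family are given for comparison. Of 41 further Ly6/uPAR family genes listed, 35 were in the table and 3 had enough counts to be tested, Lynx1, Plaur and Cd59a. None of the 3 was called higher in any comparison of the fit over 18 libraries, and without KO resting replicate 3 Lynx1 was called higher after LPS in WT and in KO. Cd59a, which protects cells from complement, was lower in KO than in WT at rest by a log2 difference of -1.03 ± 0.21 (edgeR adjusted p = 0.00650), and by -1.03 ± 0.24 without KO resting replicate 3 (0.0156). Plaur, the urokinase receptor, was lower in KO than in WT with LPS at -1.12 ± 0.22 (edgeR adjusted p = 0.00766). Of the 30 genes tested for making or remodelling the GPI anchor, 1 was called higher after LPS in WT, Pgap2 at 1.87 ± 0.17 (edgeR adjusted p = 1.24e-06). In the same list 4 were called higher and 2 lower after LPS in KO (5 and 2 without KO resting replicate 3), and 1 higher and 2 lower in 3F. No GPI-anchor gene was called between KO and WT in edgeR in either state, and the list's medians were 0.04 at rest (-0.12 without KO resting replicate 3) and -0.01 with LPS.

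Around the cluster, 45 other genes of the table lay within 1000000 bases of the members and 20 of them were tested. Of these 1 was called higher after LPS in WT, Gsdmd, the pore-forming gasdermin D, at 1.40 ± 0.31 (edgeR adjusted p = 0.00278), and the median of the 20 was 0.08. In resting KO against WT the same single gene was called, at 1.10 ± 0.31 (edgeR adjusted p = 0.0333), and the median was -0.01. Its difference without KO resting replicate 3 was 0.42 ± 0.18 (edgeR adjusted p = 0.168) and no longer called. Among all genes tested 16.3% were called higher after LPS in WT and 5.12% in resting KO against WT. The neighbours were named after their values were seen.

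**Figure D5:**
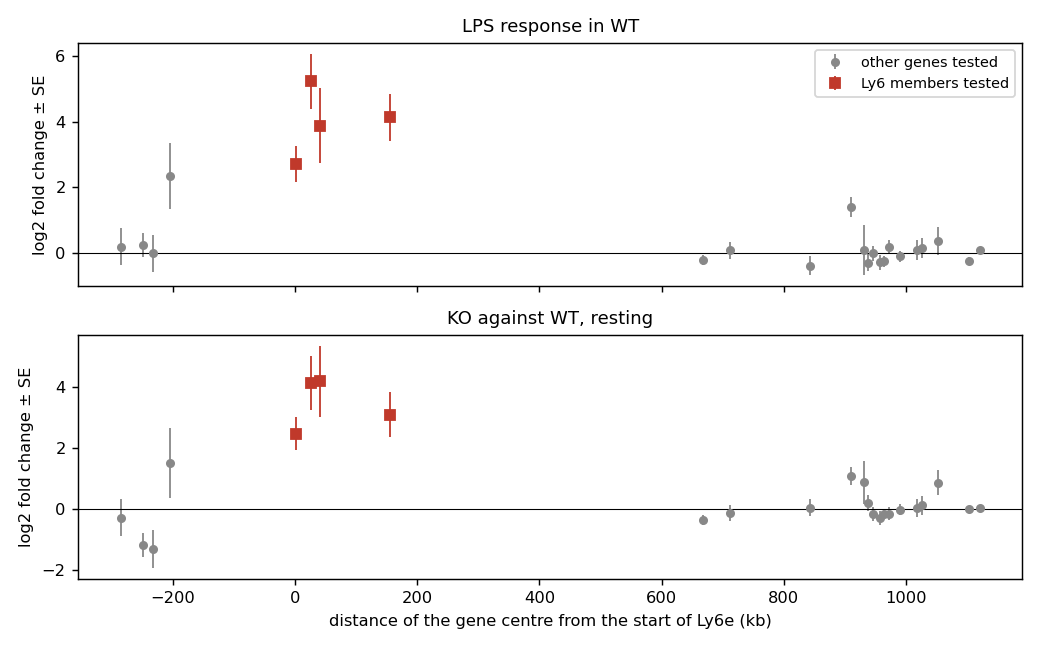
Log2 fold change with its SE (vertical axis) of the 4 members tested (squares) and of 20 tested genes nearby (circles) against the distance of each gene's centre from the start of Ly6e in kb (horizontal axis). The members stand between 2.72 and 5.24 for LPS in WT and between 2.48 and 4.19 for resting KO against WT, and Gsdmd is the called neighbour in both with all 18 libraries in the fit.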

How the data were processed

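The deposited table holds raw counts of reads per protein-coding gene and an exon length. The authors trimmed reads with cutadapt 1.8.3, removed ribosomal DNA reads and aligned the rest to mm10 with HISAT2 2.1.0, and counted them by strand with featureCounts 1.5.3 on Gencode M15 at a mapping quality of at least 50. Counts were fitted in R 4.3.3 with edgeR 4.0.16 (filterByExpr with 6 groups, which left 11357 genes, TMM scaling, glmQLFit and glmQLFTest over all 18 libraries, no covariate). Tests were two-sided, p was adjusted by Benjamini-Hochberg over the 11357 genes, and calls use 0.05. The study's methods name no test per gene for these counts. CPM uses TMM-scaled library sizes (factors 0.812 to 1.15), and the likeness measure used log2 CPM with a prior count of 2. Intervals from pooled counts cover counting error alone, because without molecular identifiers reads may be copies of 1 molecule. With 3 libraries against 3 an exact permutation test cannot go below p = 0.1, so none was used. Alternatives were DESeq2 1.42.0 and its size factors, limma 3.58.1 (voom with quality weights), no filter, the compared groups alone, a replicate block and leaving out each library in turn. Pooled ratios and likeness without KO resting replicate 3 were added after seeing the data. The procedure was tested on simulated data. That simulation held no outlying library, so it does not cover the effect of KO resting replicate 3 or 3F resting replicate 3.

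No 2 replicates of a group agreed within sampling noise, so each was counted once. Groups come from GEO's labels, and the labels name no batch. The members, gene lists and tests were chosen with earlier results of these data known. The rule names the 5 members whatever they show, the 3 genes most like each tested member among genes whose average log2 CPM reaches 1, and called genes of the family and GPI-anchor lists in KO against WT or in the LPS response of WT. Positions and 3′ UTRs come from GENCODE M21 (same build), and promoters and microRNAs from RefSeq. Protein sequences were not used here. Levels near the filter, as for Ly6a and Ly6c1, have the least precision.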

Additional observations from a re-analysis of the deposited data

How the results depend on the processing

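Ly6c2, Ly6e and Ly6i kept their calls after LPS in WT and in 3F under all 24 alternatives. The counts of members called elsewhere moved. For the LPS response of KO the count of 2 became 1 with the compared groups alone (Ly6i adjusted p = 0.0541), 4 with limma-voom quality weights and 2 to 4 on leaving out 1 library. For KO against WT at rest the count of 4 became 0 with the compared groups alone, 1 with limma-voom and 1 to 4 on leaving out 1 library. For KO against 3F at rest it went from 4 to 0, 2 and 2 to 4 under the same settings. For KO against WT with LPS the count of 0 became 2 without the low-count filter, 2 with the compared groups alone, 1 with DESeq2, 3 with limma-voom, 2 with the replicate block and 0 to 2 on leaving out 1 library. For KO against 3F with LPS it became 1 without the filter, 4 with the compared groups alone, 3 with limma-voom and 0 to 3 on leaving out 1 library. The number of all genes called in either direction also differed between settings. In the LPS response of KO it was 3059 in the reported fit, 2522 with the compared groups alone and 6073 with limma-voom. At rest these 2 settings called 380 and 2259 genes in KO against WT, and 10 and 2916 in KO against 3F. With LPS they called 1040 and 1777 in KO against WT, and 1665 and 1842 in KO against 3F. For KO against WT with LPS, 552 genes were called without the filter, 983 with DESeq2 and 579 with the replicate block. For KO against 3F with LPS, 442 were called without the filter. The cause of these moves was not tested.

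Signs turned only where no member was called. On leaving out 1 library the log2 difference of 3F and WT with LPS ran from -0.87 to 0.21 for Ly6a, -0.054 to 0.42 for Ly6c2, -0.030 to 0.28 for Ly6e and -0.10 to 0.50 for Ly6i. At rest it ran from -0.23 to 0.49 for Ly6a, -0.21 to 0.24 for Ly6c2 and -0.33 to 0.42 for Ly6i, and for Ly6c2 it was -0.0098 without the filter and -0.22 with limma-voom. The difference of the LPS responses of 3F and WT ran from -1.01 to 0.077 for Ly6a, -0.069 to 0.41 for Ly6c2 and -0.22 to 0.53 for Ly6i, with -0.0031 for Ly6i in limma-voom. For KO and WT it ran from -1.66 to 0.61 for Ly6c2, with 0.59 in limma-voom. DESeq2 gave no adjusted p for Ly6a there.

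The labels give the groups the same replicate numbers without saying that a number marks 1 animal. Deviations of same-numbered resting and LPS libraries correlated at 0.0283 to 0.318 over 9 pairs, 5 of them over 0.1, and 15 of 18 libraries correlated best with their own number, a hint from the data and not the design. With the replicate block 2 members were called in KO against WT with LPS, Ly6c2 and Ly6i (adjusted p = 0.0311 and 0.0477), and 3 in the LPS response of KO, where Ly6e passed at 1.43 (adjusted p = 0.0489). Low counts of Ly6a at rest (0 to 9 outside KO resting replicate 3) and of Ly6c1 limit what depth can show.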

Other observations

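Per kb of exon, the level of Ly6c2 divided by that of Ly6i lay between 2.07 and 7.55 in WT resting libraries and between 2.54 and 3.66 in 3F resting libraries. With LPS it lay between 1.34 and 1.79 in WT, 1.29 and 1.47 in 3F and 1.44 and 1.69 in KO. In KO resting libraries, replicates 1 and 2 included, it lay between 1.42 and 1.74. The resting ratios of WT and 3F rest on 3 to 11 counts of Ly6i per library, and the difference was not tested.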
